A study of Mus musculus with 2 samples.

Results

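The miR-181 family was measured by small RNA sequencing of total RNA from mouse heart. Its members were the rows of the count tables whose gene ID carries 1 of 6 symbols in GENCODE M21, namely Mir181a-1, Mir181b-1, Mir181a-2, Mir181b-2, Mir181c and Mir181d, out of 2202 miRNA genes in all. They form 3 clusters of 2 genes each: Mir181a-1/b-1, Mir181a-2/b-2 and Mir181c/d. The hearts of 2 female B6CASTF1/J mice (a cross of C57BL/6 and CAST) aged 36 days gave 1 library each, called replicates 1 and 2 in the labels, and these form a single group. No treatment and no mutant allele is given for either animal, so no comparison between conditions exists. Each heart has its own biosample record, and the records number the females differently but carry the same donor code. The reading of the libraries as hearts of separate animals rests on those records, and the p-values and SDs below measure only how these 2 libraries differ. Whole heart holds muscle, vessel, connective tissue and blood cells, and fewer cells of a type and less RNA per cell cannot be told apart.

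A miRNA is processed from a hairpin in a longer transcript, and a hairpin can give a mature RNA from its 5p arm and another from its 3p arm. Bases 2 to 8 from the 5′ end, the seed, largely decide which messenger RNAs a miRNA represses, so members with a common seed are read as a family. The miR-181 family is best known from lymphocytes, where miR-181a tunes T cell receptor signalling in mouse thymocytes, and from vascular endothelium, where miR-181b restrains NF-kB signalling. In rat heart, miR-181c has been found in mitochondria, where it lowers the product of the mitochondrial Cox1 gene.

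The 5p arms are shown first because they define the family: the seed, in capitals, was the same in all 6 genes. RefSeq (build GRCm38.p6) held mature entries for 6 of the 6 genes, 12 entries with 10 distinct sequences, and the seed occurred in 6 of its 1738 mouse mature entries, all of them miR-181 genes.
miR-181a-5p (Mir181a-1 and Mir181a-2): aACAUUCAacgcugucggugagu
miR-181b-5p (Mir181b-1 and Mir181b-2): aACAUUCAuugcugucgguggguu
miR-181c-5p (Mir181c): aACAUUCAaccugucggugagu
miR-181d-5p (Mir181d): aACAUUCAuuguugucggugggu
With positions counted from 1 at the 5′ end, miR-181b-5p differed from miR-181a-5p by A9U, C10U and A21G over the 23 bases they have in common. miR-181d-5p differed from miR-181b-5p by the single change C12U. miR-181c-5p equalled miR-181a-5p with base 11 left out.

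The 3p arms are shown because each of the 6 belonged to 1 hairpin only, so that reads from them can be placed. Capitals again mark bases 2 to 8.
miR-181a-1-3p: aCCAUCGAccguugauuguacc
miR-181a-2-3p: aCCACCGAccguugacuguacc
miR-181c-3p: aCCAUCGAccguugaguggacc
miR-181b-1-3p: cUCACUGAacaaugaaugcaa
miR-181b-2-3p: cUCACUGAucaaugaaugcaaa
miR-181d-3p: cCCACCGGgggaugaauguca
The 3p arms carried 4 different seeds. Mir181a-1 and Mir181c shared 1 seed, Mir181b-1 and Mir181b-2 another. miR-181a-2-3p differed from miR-181a-1-3p by U5C and U16C, and U5C lies in the seed.

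The hairpins of the duplicated genes show what a read must contain to be counted at a single gene, because the deposited tables set reads that map to several places apart in a row of their own. Capitals mark the longest run that the hairpins of a pair have in common.
Mir181a-1: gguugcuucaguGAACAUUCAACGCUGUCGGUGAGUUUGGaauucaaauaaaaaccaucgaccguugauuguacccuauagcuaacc
Mir181a-2: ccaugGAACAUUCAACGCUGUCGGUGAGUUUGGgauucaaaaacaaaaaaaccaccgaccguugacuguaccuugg
Mir181b-1: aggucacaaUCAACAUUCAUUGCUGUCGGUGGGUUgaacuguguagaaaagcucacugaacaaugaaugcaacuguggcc
Mir181b-2: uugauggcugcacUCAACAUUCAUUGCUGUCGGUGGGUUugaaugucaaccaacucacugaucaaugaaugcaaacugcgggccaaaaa
The run was 28 nt long between Mir181a-1 and Mir181a-2 and reached 4 bases past the annotated 3′ end of miR-181a-5p. A read that starts at the annotated 5′ end of miR-181a-5p matched a single hairpin only from 28 nt on, while the labels give a size range below 30. The run was 26 nt long between Mir181b-1 and Mir181b-2 and ended exactly with miR-181b-5p, where the next base is G in Mir181b-1 and U in Mir181b-2. A read of 25 nt from the annotated start of miR-181b-5p therefore already matched 1 hairpin. Mir181c and Mir181d had no run of 18 nt in common with any other annotated hairpin, and their 5p arms matched 1 hairpin from 11 and 12 nt on. These matches cover the 2202 annotated hairpins and not the rest of the genome.

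**Figure D1:**
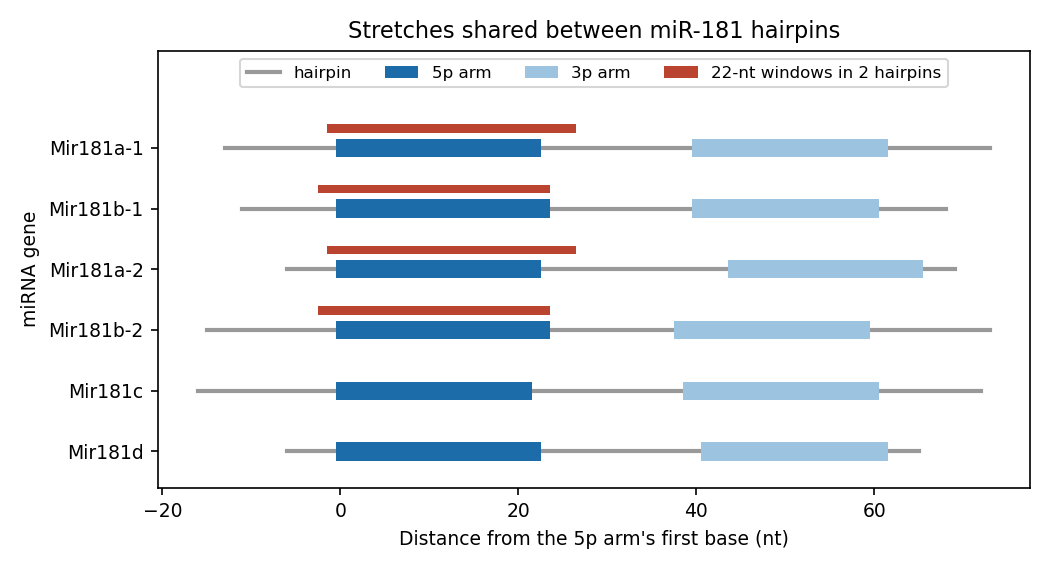
Hairpins of the 6 miR-181 genes (grey lines) along the distance in nt from the first base of the 5p arm, with 5p arms in dark blue and 3p arms in light blue. Red bars span the 22-nt windows found in 2 hairpins: they cover the whole 5p arm of the 4 Mir181a and Mir181b genes, no 3p arm, and nothing in Mir181c or Mir181d.

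All coordinates are on mm10. Mir181a-1 (ENSMUSG00000065565.1, 137966455 to 137966541) and Mir181b-1 (ENSMUSG00000065458.1, 137966639 to 137966718) lie 97 nt apart on the plus strand of chromosome 1, in an intron of the non-coding gene Gm4258. Mir181b-1 also lies within an exon of the lincRNA gene A430106G13Rik on the same strand, and Mir181a-1 overlaps that exon in part. Mir181a-1 and Mir181b-1 also face the opposite strand of an intron of the lincRNA gene Gm26936. Mir181a-2 (ENSMUSG00000065423.1, 38852735 to 38852810) and Mir181b-2 (ENSMUSG00000065578.1, 38853830 to 38853918) lie 1019 nt apart on the plus strand of chromosome 2. They face the opposite strand of an intron of Nr6a1, a nuclear receptor gene, and Mir181b-2 also faces an exon of Gm44144. Mir181c (ENSMUSG00000065483.2, 84178873 to 84178961) and Mir181d (ENSMUSG00000076338.1, 84178716 to 84178787) lie 85 nt apart on the minus strand of chromosome 8, in an intron of Nanos3, a germ cell gene on the same strand. In the column read as the opposite strand, no read was counted at any of the 6 genes in either library.

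The 2 tables assigned 2074961 reads (replicate 1) and 1766135 reads (replicate 2) to miRNA genes on the sense strand, and CPM are sense counts per 1000000 of these totals. A further 42.0% and 39.8% of all tabulated reads, in replicates 1 and 2, mapped to several places and are part of no gene's value. How many of those came from miR-181 is not shown by the tables, so the levels of the Mir181a and Mir181b genes are levels of reads placed at 1 gene and not of the mature miRNAs. A read from either arm counts for its gene, and the arms are not separated. The arms are 21 to 24 nt long in all 6 genes, and CPM were not divided by length.

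All 6 members passed the detection limit, 2 CPM in each of the libraries, while 15.2% of all 2202 miRNA genes did. Mir181d was the highest, with 1985 counts or 957 CPM (95% exact interval 915 to 1000) in replicate 1 and 1714 counts or 970 CPM (925 to 1018) in replicate 2. Its mean of 964 ± 9.78 CPM (SD, n = 2) placed it at rank 71 of the 2202 genes. Its neighbour Mir181c had 1039 counts or 501 CPM (471 to 532) in replicate 1 and 1014 counts or 574 CPM (539 to 611) in replicate 2, a mean of 537 ± 51.9 CPM at rank 85. Thus both genes of the cluster whose 5p arms can be placed stood among the 100 highest miRNA genes of the tables. Mir181b-2, whose 5p arm is shared with Mir181b-1, did so as well, at rank 84.

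In the cluster on chromosome 2, Mir181b-2 stood far above Mir181a-2 in reads placed at 1 gene. Mir181b-2 had 1265 counts or 610 CPM (577 to 644) in replicate 1 and 1115 counts or 631 CPM (595 to 669) in replicate 2, a mean of 620 ± 15.3 CPM at rank 84. Mir181a-2 had 250 counts or 120 CPM (106 to 136) in replicate 1 and 392 counts or 222 CPM (201 to 245) in replicate 2, a mean of 171 ± 71.7 CPM at rank 117. The spread of Mir181a-2 between the hearts was the widest of the 6 in CPM, and its higher value was in replicate 2.

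In the cluster on chromosome 1, the order of the a and b genes was the other way round. Mir181a-1 had 208 counts or 100.2 CPM (87.1 to 115) in replicate 1 and 158 counts or 89.5 CPM (76.1 to 105) in replicate 2, a mean of 94.9 ± 7.62 CPM at rank 143. Mir181b-1 was the lowest of the family, with 11 counts or 5.30 CPM (2.65 to 9.49) in replicate 1 and 5 counts or 2.83 CPM (0.919 to 6.61) in replicate 2, a mean of 4.07 ± 1.75 CPM at rank 325. Since no read at all still allows up to 3 counts, levels below 1.45 CPM (replicate 1) or 1.70 CPM (replicate 2) could not have been told from 0, and in replicate 2 the interval of Mir181b-1 reached below that limit.

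**Figure D2:**
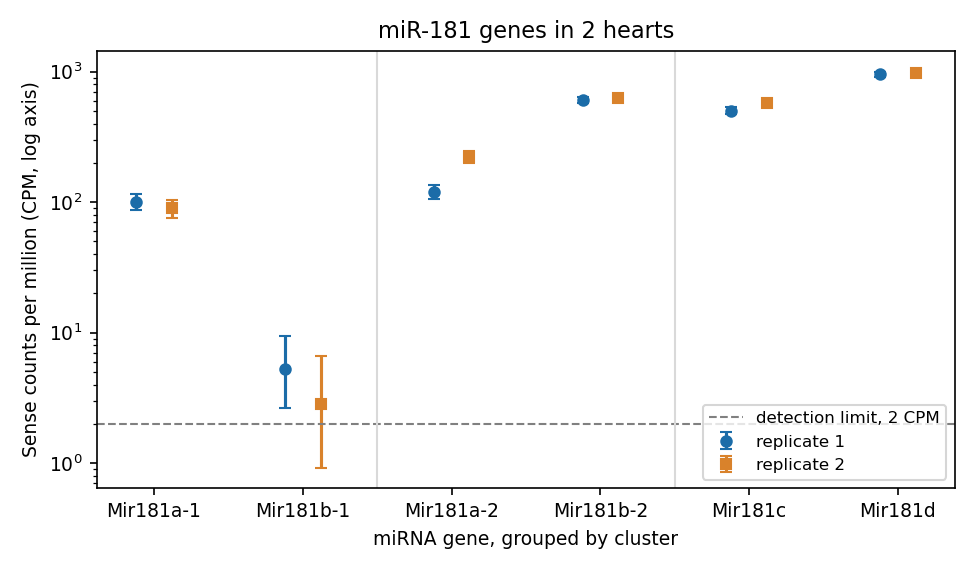
CPM of each miR-181 gene (log axis) in replicate 1 (circles) and replicate 2 (squares), with exact 95% intervals that cover counting error only; the dashed line is the detection limit of 2 CPM. Mir181d stands highest, at 957 and 970 CPM, Mir181b-1 lowest between 2.83 and 5.30 CPM, and Mir181a-2 has 120 and 222 CPM in replicates 1 and 2.

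The order of the levels was Mir181d, Mir181b-2, Mir181c, Mir181a-2, Mir181a-1 and Mir181b-1, and it was the same in both hearts. It is an order of reads placed at 1 gene, and the genes differ in which reads can be placed. From its annotated start, a 5p read matched 1 hairpin from 11 nt on for Mir181c and 12 nt for Mir181d. For the Mir181b genes this took 25 nt, and for the Mir181a genes 28 nt. For all 15 pairs of members the ranges of the 2 libraries did not overlap. The means of the members ran from 4.07 to 964 CPM, and the share of such pairs among all miRNA genes was not computed. The closest neighbours were Mir181b-2 and Mir181c: Mir181b-2 exceeded Mir181c by a factor of 1.22 in replicate 1 (exact interval 1.12 to 1.32) and of 1.10 in replicate 2 (1.01 to 1.20). The gap between their means was larger than the SD of either gene. Mir181a-2 exceeded Mir181a-1 by 1.20 times in replicate 1, where the interval of 0.996 to 1.45 included 1, and by 2.48 times (2.06 to 3.00) in replicate 2. Mir181d exceeded Mir181c by a factor of 1.91 in replicate 1 (1.77 to 2.06) and of 1.69 in replicate 2 (1.56 to 1.83). That ratio compares genes that both have unshared arms, so it does not depend on reads set apart as mapping to several places among the annotated hairpins.

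Counted reads of the family came mostly from Mir181c/d. The 6 genes summed to 4758 counts or 2293 CPM (2228 to 2359) in replicate 1 and 4398 counts or 2490 CPM (2417 to 2565) in replicate 2, a mean of 2392 ± 139 CPM (SD, n = 2). This was 0.229% and 0.249% of the counts of all miRNA genes in replicates 1 and 2. Mir181c/d held 63.6% of the family's counts (62.2 to 64.9) in replicate 1 and 62.0% (60.6 to 63.5) in replicate 2, and their intervals overlapped. Mir181a-2/b-2 held 31.8% (30.5 to 33.2) in replicate 1 and 34.3% (32.9 to 35.7) in replicate 2. Mir181a-1/b-1 held 4.60% (4.02 to 5.24) in replicate 1 and 3.71% (3.17 to 4.31) in replicate 2. These shares are of reads placed at 1 gene: reads confined to miR-181a-5p or miR-181b-5p match 2 clusters and are in none of them.

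**Figure D3:**
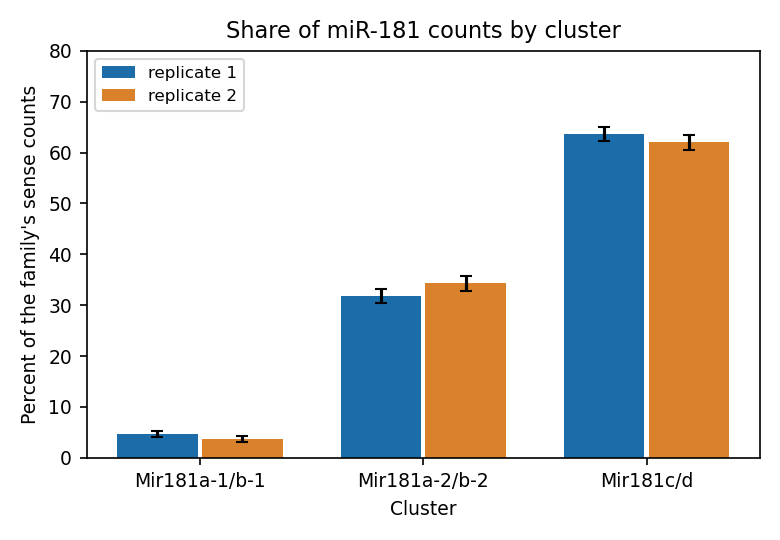
Percent of the family's sense counts held by each cluster, in replicate 1 (blue) and replicate 2 (orange), with exact 95% intervals. Mir181c/d holds over 60% in both hearts and Mir181a-1/b-1 under 5%.

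The copies of the b gene differed far more in counts than the copies of the a gene. Mir181b-2 exceeded Mir181b-1 by a factor of 115 in replicate 1 (exact interval 64.1 to 231) and of 223 in replicate 2 (95.3 to 688). The copies share all 24 bases of miR-181b-5p, and the first base after it already tells them apart. The copies of miR-181a-5p are the same for 4 more bases. The same ratio was taken for 14 other families whose mature miRNA is made from 2 listed loci. This list was chosen with earlier results of these data known and was not a survey of all such families. Over the 13 of them with counts at both copies, the higher copy exceeded the lower by a median of 4.00 times, between 1.03 and 21, in replicate 1, and by a median of 2.53 times, between 1.00 and 25.7, in replicate 2. The ratio of Mir181b therefore lay above all 13 in both libraries, while that of Mir181a lay below the median in both. Next highest in both was Mir128, with 126 and 6 counts in replicate 1 and 283 and 11 in replicate 2 for Mir128-1 and Mir128-2. Depth limits such a ranking, because a ratio with counts at both copies stays below the summed counts of the family. Mir181b summed to 1276 counts in replicate 1 and 1120 in replicate 2. Mir29b (76 and 42 in the same order) and Mir194 (59 and 65) could not have reached its ratios. Mir92 (5777 and 6658) had enough counts to do so. No test was run on this ranking. It leaves out Mir199a, where Mir199a-1 had 0 counts in both libraries and Mir199a-2 had 13 in replicate 1 and 14 in replicate 2. The ratio of Mir199a therefore has no upper limit and cannot be ranked against that of Mir181b. The number of shared bases after the arm ranged from 0 to 5 where an arm common to both copies was found, and Mir92, Mir128, Mir29b, Mir125b and Mir194 also had 0. In replicate 1 the ratio was 14.0 for Mir92 and 1.46 for Mir194. Any link between the shared bases and the ratio of the copies was not tested.

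**Figure D4:**
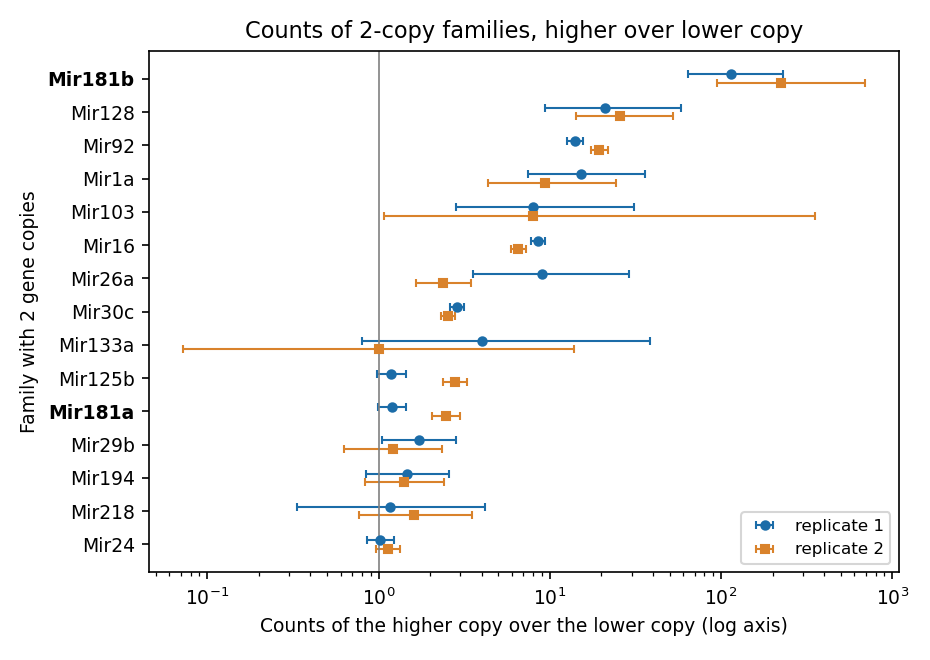
Counts of the higher over the lower gene copy (log axis) for Mir181a, Mir181b and 13 other families made from 2 loci, in replicate 1 (circles) and replicate 2 (squares), with exact 95% intervals. Mir181b stands at the top, at 115 and 223 times, and Mir181a at 1.20 and 2.48 times.

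Of the members above 10 CPM, Mir181a-2 had the ratio between the hearts farthest from 1. Log2 ratios are replicate 1 over replicate 2 on TMM library sizes (edgeR's trimmed mean of M values). An exact binomial test was applied where a gene had at least 10 counts in the libraries combined, with p-values adjusted by the Benjamini-Hochberg method over all genes tested. All 6 members were tested and 2 differed, where 44.3% of the 359 genes tested did. Of the members, 1 was higher in replicate 1 (24.2% of all tested genes were) and 1 in replicate 2 (20.1% were). Mir181a-2 had a log2 ratio of -0.71 and was 1.64-fold higher in replicate 2 (exact interval 1.39 to 1.93, adjusted p = 3.20e-09 by the exact binomial test). Mir181d had a log2 ratio of 0.15 and was 1.11-fold higher in replicate 1 (1.04 to 1.18, adjusted p = 0.00476 by the exact binomial test). With library size alone, which moves each log2 ratio by -0.17, Mir181d had -0.021 and did not pass. Mir181a-2 passed the threshold in the same direction at every setting tried.

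The other 4 members did not pass on TMM sizes. Mir181a-1 had a log2 ratio of 0.33 (fold interval 1.02 to 1.56, adjusted p = 0.0632 by the exact binomial test), Mir181b-2 of 0.12 (1.00 to 1.18, adjusted p = 0.0908), Mir181c of -0.028 (0.899 to 1.07, adjusted p = 0.792) and Mir181b-1 of 1.01 (0.675 to 7.73, adjusted p = 0.340). With 16 counts over both libraries, the interval of Mir181b-1 was wide and included 1, so no direction is given for it. Mir181a-1 was called higher in replicate 1 with DESeq2 size factors (adjusted p = 0.0249 by the exact binomial test), with 50 or more counts (0.0465) and with counts without regard to strand (0.0325), over a range of 0.0249 to 0.444 for its alternatives. Mir181b-2 was called higher in replicate 1 with DESeq2 size factors (adjusted p = 0.00602 by the exact binomial test) and without regard to strand (0.0161), over a range of 0.00602 to 0.550. The DESeq2 size factors came out as 1 in both libraries, so that setting compared raw counts. It moves each log2 ratio by 0.063 from its value on TMM sizes. The signs of Mir181b-2 and Mir181c turned under other scalings, so no direction is given for them. The median absolute log2 ratio was 0.24 over the 6 members, 0.42 over all 359 tested genes and 0.33 over the 130 genes with a mean of 50 to 2000 CPM. Over all tested genes, 87 were higher in replicate 1 and 72 in replicate 2, against 67 and 103 with library size alone.

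**Figure D5:**
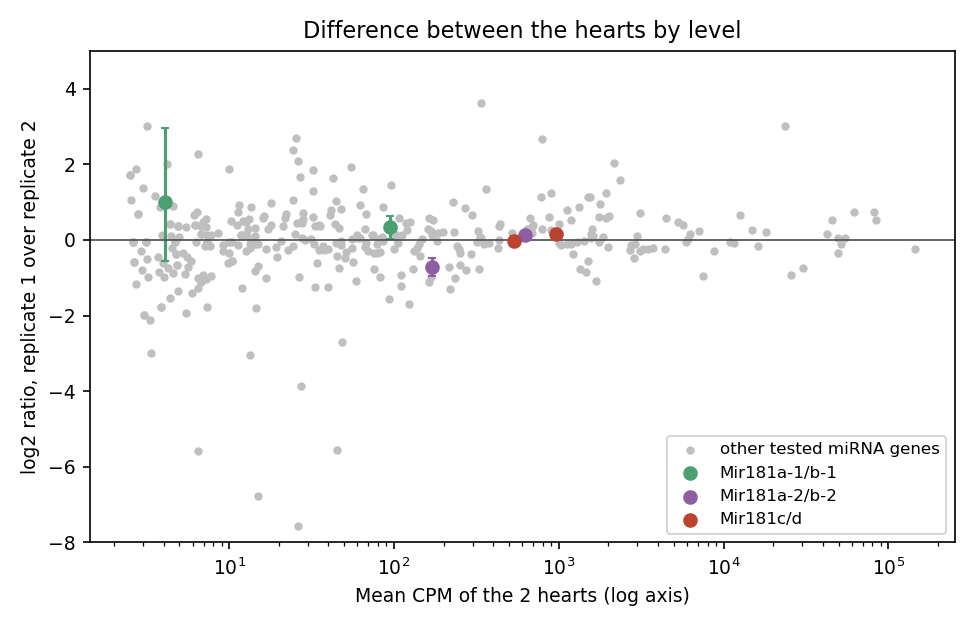
Log2 ratio of replicate 1 over replicate 2 against the mean CPM of both hearts (log axis) for the 6 miR-181 genes, coloured by cluster with exact 95% intervals, and 353 other tested miRNA genes in grey. Mir181a-2 is the member farthest from 0 among those above 10 CPM, at -0.71, and Mir181b-1, at 1.01, has an interval that spans 0.

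Ratios within a library do not depend on the scaling between libraries. They use the same counts as the test above, so the shift of Mir181a-2 reappears in them and they are no separate evidence for it. Of the 15 pairs of members, 4 had ratios whose exact intervals did not overlap between the hearts, and all 4 contained Mir181a-2. The share of such pairs among the other miRNA genes was not computed. Mir181b-2 over Mir181a-2 was 5.06 (4.41 to 5.82) in replicate 1 and 2.84 (2.53 to 3.20) in replicate 2. Mir181d over Mir181a-2 was 7.94 (6.96 to 9.09) in replicate 1 and 4.37 (3.92 to 4.89) in replicate 2, and Mir181c over Mir181a-2 was 4.16 (3.62 to 4.79) and 2.59 (2.30 to 2.91) in the same order. The remaining pair was Mir181a-2 over Mir181a-1, given above. Mir181a-2 and Mir181b-2 lie on 1 strand 1019 nt apart, and the intervals of their ratio lay apart between the hearts. Mir181d over Mir181c was 1.91 (1.77 to 2.06) in replicate 1 and 1.69 (1.56 to 1.83) in replicate 2. These intervals overlapped in part, which does not show that the ratios were equal, and no test of ratios between the hearts was run. The sum of Mir181a-2/b-2 did not show the difference of Mir181a-2: its fold of replicate 1 over replicate 2 was 0.962 (0.896 to 1.03) on TMM sizes. With library size alone its log2 ratio was -0.22, and the fold interval of 0.796 to 0.920 lay below 1.

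The miRNA genes nearest to each member in level, by the distance of log2(CPM + 1) over the 2 libraries, are given as a description, since 2 libraries hold little pattern. Nearest to Mir181a-2 were Mir152 (104 CPM in replicate 1 against 231 CPM in replicate 2) and Mir148a (95.9 against 233 CPM), which belong to 1 seed family. Both were higher in replicate 2 in CPM, which follows from choosing them by their nearness in these same libraries. Nearest to Mir181d were Mir1839 and Mir30c-2, to Mir181b-2 Mir411 and Mir497, to Mir181c Mir25 and Mirlet7c-1, and to Mir181a-1 Mir1981 and Mir203. Mir25 had 524 CPM in replicate 1 and 523 CPM in replicate 2.

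miRNA genes of cell types known for miR-181 were counted beside it. Of 6 leukocyte genes, 5 were detected and 5 tested, with 2 higher in replicate 1 and 3 in replicate 2. Their sum was 5448 CPM in replicate 1 and 6485 CPM in replicate 2. Mir155, an inflammatory miRNA of lymphoid and myeloid cells, had 2615 CPM in replicate 1 against 3190 CPM in replicate 2, and Mir150, a miRNA of mature lymphocytes, had 971 and 1955 CPM in the same order. Mir150 was 1.79-fold higher in replicate 2 (1.69 to 1.89). The list had no common direction: Mir223 was also higher in replicate 2, while Mir142 was 2.57-fold (2.28 to 2.89) and Mir146 1.44-fold (1.36 to 1.53) higher in replicate 1. Of 4 endothelial genes, 3 were detected and 3 tested, and 2 were higher in replicate 1. Mir126a, which is enriched in endothelial cells, had 97017 CPM in replicate 1 against 65811 CPM in replicate 2, and Mir221 had 1983 and 1015 CPM.

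Of 3 erythroid genes, 3 were detected and all were higher in replicate 1, with a sum of 45889 CPM in replicate 1 and 7589 CPM in replicate 2, led by Mir451a and Mir144. Of 9 neuronal genes, 3 were detected, 5 had no read in either library (Mir9-1, Mir9-2 and the 3 genes of Mir124a), and 2 of 3 tested, Mir128-1 and Mir137, were higher in replicate 2. Their sum was 74.7 CPM in replicate 1 and 190 CPM in replicate 2. The part of any of these cell types in the difference of Mir181a-2 was not tested. Of the 28 genes in the 14 other families made from 2 loci, 24 were detected and 25 tested, with 5 higher in replicate 1, 7 in replicate 2 and a median log2 ratio of -0.16. The median was 0.13 over the 6 miR-181 members and 0.01 over all genes tested. The highest of these were Mir92-1, with 5392 counts in replicate 1 and 6333 in replicate 2, and Mir16-1, with 4177 and 2648.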

How the data were processed

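The authors deposited raw counts of reads per GENCODE M21 miRNA gene on mm10, 1 table for each of 2 heart libraries, per the deposited notes. No source used here names the aligner or the counter. Each table has 3 columns of counts with no header, read here from their values as without regard to strand, sense and opposite strand, and 4 rows that name no gene, which hold 63.0% and 64.6% of reads in replicates 1 and 2 and were left out of library sizes. The sense column was used. Without regard to strand, reads where miRNA genes overlap are ambiguous.

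CPM, exact (Clopper-Pearson) 95% intervals and exact two-sided binomial tests were computed with SciPy 1.17.1, with TMM sizes from edgeR 4.0.16, a prior count of 0.5 and a threshold of 0.05. DESeq2 1.42.0 size factors were an alternative, but they came out as 1 in both libraries and so made no correction for depth. A p from this test compares 2 libraries, not conditions. Reads carry no molecular identifiers and PCR copies are not separate molecules: every interval and floor covers counting error only. The split test was checked on simulated counts with Poisson error only. That check does not cover variation between hearts, PCR copies or the scaling of the libraries. Mature arms and hairpins came from RefSeq (GRCm38.p6), and all 5 RefSeq hairpins of the family equalled those of GENCODE, which also gave every hairpin compared.

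The members and 5 gene lists were chosen with earlier results of these data known. Named genes were the members, the 2 genes nearest in level to each member with 10 or more counts in each library, and the 2 highest of each list. Further genes named (Mir142, Mir146, Mir223, Mir144, Mir128-1, Mir128-2, Mir137, Mir9-1, Mir9-2, the Mir124a genes, Mir29b, Mir125b, Mir194, the Mir199a genes) were chosen after their values were seen, or belong to counts of 5 or fewer.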

Additional observations from a re-analysis of the deposited data

How the results depend on the processing

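Of 82 values under alternatives, 64 kept their direction, side of the threshold or size, but many of these could hardly have done otherwise. A single library always lies within the SD of the mean of 2 libraries. The members had the same counts with and without regard to strand, so their cluster shares could not move. A larger prior count does not enter the p-values, and 3 members called against 2 was taken as the same. The family sum of 2392 CPM was 865 per 1000000 tabulated reads of any kind, 3311 CPM with counts without regard to strand, whose library sizes are smaller, 2390 CPM on TMM sizes, and 2293 to 2490 CPM in single libraries. With DESeq2 size factors, which were 1 in both libraries, 4 members differed, against 2. The number was 4 with counts without regard to strand and 3 with 50 or more counts. All genes that differed numbered 148 to 170. Signs turned in 6 cases: with library size alone for Mir181b-2 (-0.050), Mir181d (-0.021) and Mir181c/d (-0.084), with DESeq2 size factors for Mir181c (0.035) and Mir181a-2/b-2 (0.0076), and without regard to strand for Mir181c (0.015). These settings differ in the sizes of the libraries, which move every ratio alike. With library size alone, Mir181c was called higher in replicate 2 (adjusted p = 0.00545 by the exact binomial test, 0.00545 to 0.929 over its alternatives). Mir181a-2 kept its call, with log2 ratios from -0.88 to -0.65. At 10 CPM or 10 counts in both libraries, 5 members were detected, all but Mir181b-1, whose 16 counts limit every statement on it. No paired analysis was possible because there is 1 group.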
